A study of Mus musculus with 43 samples.

Results

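Imprinted genes are read only or mainly from the maternal or from the paternal copy, and 36 genes known to be imprinted in the mouse were taken as a list and followed in neurons that project from the lateral nucleus accumbens to the ventral tegmental area (NAcLat→VTA). Of the 36 genes, 29 were among the 35825 genes of the count table. *Meg3*, *Rian*, *Mirg*, *H19*, *Kcnq1ot1*, *Peg13* and *Airn* were not analysed here. The cells were neurons of C57BL/6J mice, a line of which the study used males and females, marked by red retrobeads injected into the ventral tegmental area, and the cytosol of each cell was drawn into the patch pipette after recording and sequenced as 1 library. In total, 43 cells were analysed. Of these, 23 came from mice on regular chow (REG, labelled NORM) and 20 from mice given a high-fat diet (HFD) together with regular chow. Batch 1 held 13 REG and 5 HFD cells, and batch 2 held 10 REG and 15 HFD cells. Since the labels do not tie a cell to its mouse, a diet counts as 1 sample here, cells were not taken as replicates, and no test between diets was made. Diet values are therefore given with their spread over cells, within each batch, and with each cell left out in turn.

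Imprinting rests on DNA methylation that is laid down differently in egg and sperm at CG pairs of control regions, and it is kept in the body's cells after fertilization. Imprinted genes lie in clusters, and many act in growth, placental function and energy balance, while several are prominent in brain, among them the genes of the Prader-Willi and Angelman region. Which parental copy gave a read cannot be seen here, because the values are summed per gene in an inbred strain. The statements on parental origin are background. Coordinates refer to GRCm38.

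Stretches of promoter sequence are shown for the members whose shared or nested position bears on the values that follow. *Peg3* and *Usp29* start back to back on opposite strands and *Snurf* and *Snrpn* share a start in RefSeq, while *Zrsr1*, the member with the highest level, lies inside *Commd1*. The sequences are from RefSeq (GRCm38.p6), 5′ to 3′, with each CG pair in capitals. The stretch between *Peg3* and *Usp29* is chr7:6730420-6730582 on the plus strand, the *Snurf* and *Snrpn* stretch is chr7:60005200-60005449 on the minus strand, and the *Zrsr1* stretch is chr11:22971755-22972004 on the plus strand.
Peg3 and Usp29, between their starts: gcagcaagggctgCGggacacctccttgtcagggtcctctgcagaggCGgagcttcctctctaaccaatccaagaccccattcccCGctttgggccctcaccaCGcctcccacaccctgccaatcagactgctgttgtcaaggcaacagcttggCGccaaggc
Snurf and Snrpn, shared start: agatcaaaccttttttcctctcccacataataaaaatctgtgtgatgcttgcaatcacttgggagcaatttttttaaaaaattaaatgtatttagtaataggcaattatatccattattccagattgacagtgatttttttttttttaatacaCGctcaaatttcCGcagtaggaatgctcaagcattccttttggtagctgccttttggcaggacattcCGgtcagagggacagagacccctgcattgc
Zrsr1: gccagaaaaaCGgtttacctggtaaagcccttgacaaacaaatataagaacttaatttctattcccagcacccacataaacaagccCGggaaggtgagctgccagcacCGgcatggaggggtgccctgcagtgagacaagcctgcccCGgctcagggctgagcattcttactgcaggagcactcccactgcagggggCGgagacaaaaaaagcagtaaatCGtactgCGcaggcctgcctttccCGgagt
The *Peg3* and *Usp29* stretch has 163 bases with 5 CG pairs. The *Snurf* and *Snrpn* stretch has 3 CG pairs in the 250 bases before the start, and 71.0% of all 32851 windows of that length hold as many or more. The *Zrsr1* stretch has 8, matched or exceeded in 43% of windows. Across the 44 windows of the 28 members with a start in the table, the median was 10 CG pairs and the range 0 to 40, beside a median of 6 over all windows. Methylation was not measured.

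Counts were divided by the total of the cell and multiplied by 1000000 (CPM), and TPM values, which also account for transcript length, were used to set genes side by side. The total estimated count was 1426795 at the median and ranged from 176961 to 16919555, with medians of 1427698 in REG and 1416982 in HFD cells. A single gene, *Lars2*, held 26.05% of a cell's total at the median, from 2.33% to 48.5% in REG and from 4.23% to 79.8% in HFD cells. The CPM of every other gene is lower where that share is high. A gene was called expressed with more than 15 CPM in at least 5 cells and a mean above 4 CPM, which 10802 genes passed. Of the 29 members, 21 passed. *Dio3*, *Magel2*, *Snurf*, *Igf2*, *Cdkn1c*, *Asb4*, *Calcr* and *Plagl1* did not. The summed CPM of medium spiny neuron markers was 2184 to 8471 in REG cells, with a median of 4844, and 540 to 9646 in HFD cells, with a median of 2987. The part of this difference in the diet ratios was not tested. *Drd1*, which encodes the dopamine D1 receptor, had counts in 43 of 43 cells. Glutamatergic markers were near the floor, with medians of 4.51 and 4.27 CPM. Microglial markers reached 1576 CPM in a REG cell and 1348 CPM in an HFD cell, at medians of 61.9 and 69.5 CPM. Endothelial markers were higher, with medians of 259 CPM in REG and 318 CPM in HFD cells and highest values of 2309 and 4078 CPM. Oligodendrocyte markers had medians of 97.7 and 149 CPM and highest values of 1126 and 1781 CPM.

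The members covered most of the range of expression in these cells. *Zrsr1*, a single-exon gene for a splicing-related zinc finger protein, had the highest level, with a median of 1087 TPM and a range from 156 to 5102 TPM. It ranked at position 45 of all genes by median TPM. Its lowest and highest cells in TPM had similar counts of it, 7412 and 7307, at cell totals of 16919555 and 340778. The part of the cell total in the level of *Zrsr1* was not tested. *Snrpn*, which encodes the splicing protein SmN, followed at 315 TPM, from 11.3 to 1071 TPM, at rank 259. *Ube3a*, the ubiquitin ligase of Angelman syndrome, which neurons read from the maternal copy, was next at 153 TPM, from 3.77 to 886 TPM, at rank 554. These 3 genes and *Inpp5f*, a phosphoinositide phosphatase, had counts in 43 of 43 cells. The ranges of neighbours in this order overlap widely, so the order of medians does not hold in each cell.

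A middle group had medians between 15.4 and 72.6 TPM. It holds *Gnas*, the alpha subunit of the stimulatory G protein, at 72.6 TPM and *Peg3*, a zinc finger protein, at 66.5 TPM. *Impact*, an inhibitor of the GCN2 kinase, had a median of 56.0 TPM and *Inpp5f* 51.4 TPM. The values for *Nnat*, a small membrane protein, and *Ndn*, the MAGE family protein necdin, were 42.4 and 37.8 TPM. *Blcap* (20.95 TPM), *Commd1* (19.5 TPM), *Mest* (18.8 TPM) and *Usp29* (15.4 TPM) completed this group. *Grb10*, an adaptor of insulin and IGF receptors, stood at 7.15 TPM, *Sgce*, which encodes epsilon-sarcoglycan, at 6.10 TPM, *Trappc9*, a vesicle tethering subunit, at 4.42 TPM and *Rtl1*, a gene derived from a retrotransposon, at 3.03 TPM. The medians of *Igf2r* (0.328 TPM), *Zim1* (0.304 TPM) and *Dlk1* (0.1999 TPM) were close to 0, and *Peg10* and the 8 members under the filter had a median of 0.

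**Figure D1:**
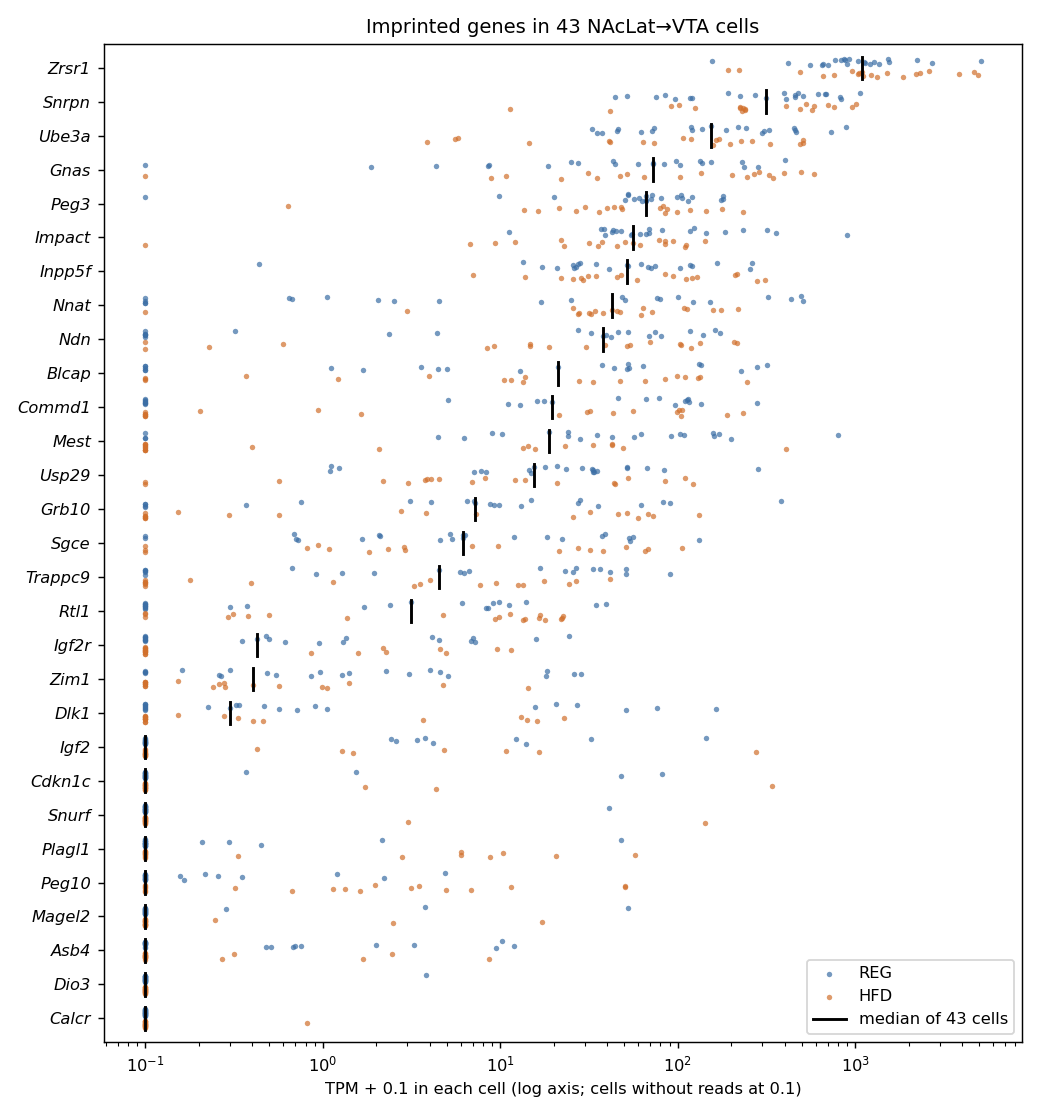
Level of the imprinted genes in each NAcLat→VTA cell, as TPM + 0.1 on a log axis, with a point per cell in the colour of its diet and a bar at the median of the 43 cells. *Zrsr1*, *Snrpn* and *Ube3a* lie above 0 in 43 of 43 cells, while members such as *Mest* and *Rtl1* combine cells at 0 with cells above 10 TPM.

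Detection separated the members further. *Peg3* and *Impact* had counts in 42 of 43 cells and *Usp29* and *Gnas* in 41. *Mest* and *Rtl1* were detected in 31 cells and *Igf2r* in 23. At the low end stood *Cdkn1c* with 7 cells, *Magel2* with 6, *Snurf* with 3, and *Dio3*, the thyroid hormone deiodinase, and *Calcr*, the calcitonin receptor, with 1 cell each. Detection depends on depth, so each cell was also thinned to 150000 counts. After thinning, *Peg3* was found in 41 cells and *Snrpn* and *Zrsr1* still in 43, whereas *Dlk1* was left with 12 of 25 cells and *Zim1* with 20 of 31. For 15 of the 29 members the thinned share stayed within the exact 95% binomial (Clopper-Pearson) interval of the share found with all counts. Intervals on shares treat the cells as independent draws, although cells share mice, so they do not measure a difference between diets. Intervals on summed counts describe counting error alone, and reads copied by amplification do not stand for separate molecules.

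**Figure D2:**
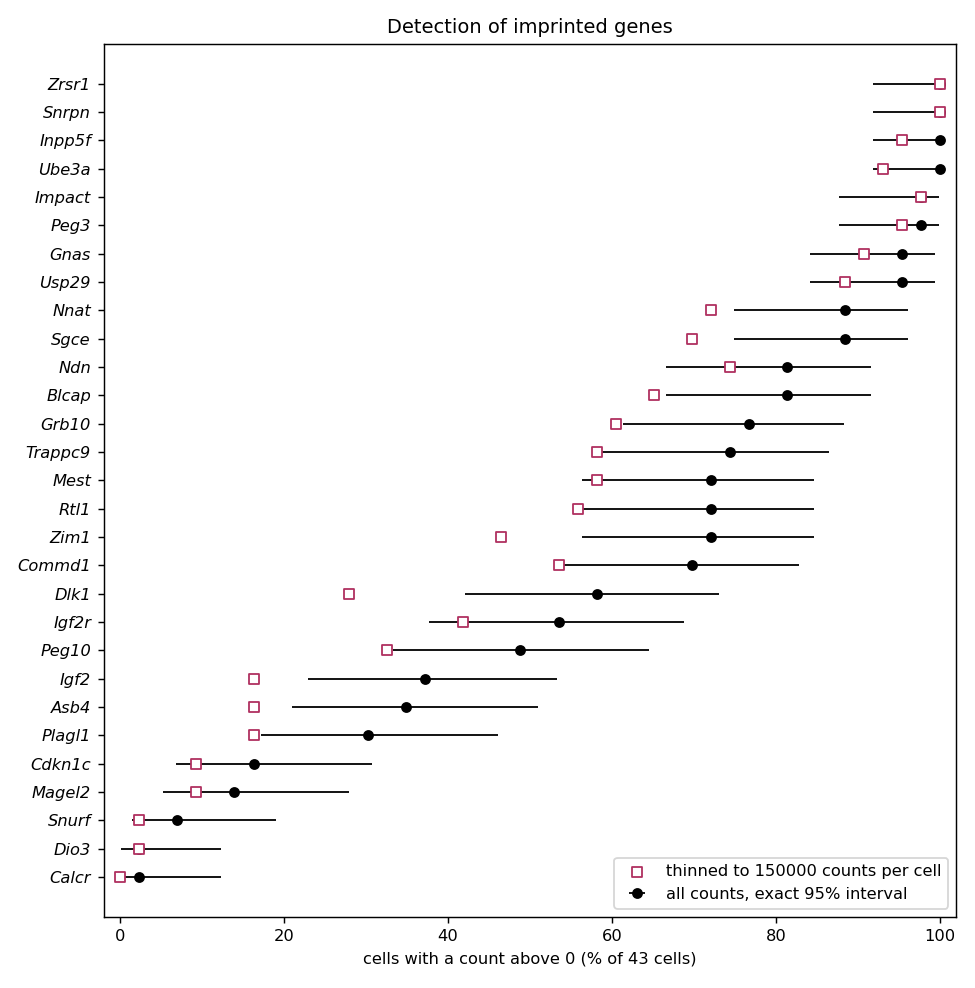
Share of the 43 cells with a count above 0 for each imprinted gene, with exact 95% binomial intervals, and the share after thinning each cell to 150000 counts (squares). The squares of *Zrsr1* and *Snrpn* stay at 43 of 43 cells, while that of *Dlk1* lies at 12 cells against 25 with all counts.

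The members of the Prader-Willi and Angelman region differed by orders of magnitude. *Snrpn* ranged from 48.7 to 1205 CPM in REG cells, with a median of 421 CPM, and from 19.4 to 1324 CPM in HFD cells, with a median of 307 CPM. *Ndn* had a median of 103 CPM in REG and 89.7 CPM in HFD cells and was detected in 35 cells in all. *Magel2*, its single-exon neighbour of the same protein family, had a count in 3 cells of each diet, and the highest cell, a REG cell, reached 142 CPM. *Snurf*, an upstream reading frame of the *Snrpn* transcript, lies within *Snrpn* on the same strand. All of its 186 words of 31 bases also occur in other genes, so its reads cannot be told from those of *Snrpn* and its low value is uncertain.

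*Peg3*, *Usp29* and *Zim1* make up the cluster on chromosome 7. *Peg3* (chr7:6703892-6730431, minus strand) and *Usp29*, a ubiquitin protease (chr7:6730578-6967219, plus strand), were both above 15 CPM in 30 of 43 cells. *Zim1*, a zinc finger gene read from the maternal copy, was above 15 CPM in 9 cells, and *Peg3*, above 15 CPM in 41 cells, was above it in the same 9. Across the 43 cells Spearman's rho of CPM was 0.59 for *Peg3* with *Zim1* and 0.32 for *Peg3* with *Usp29*, as a description only, since the cells share mice, batches and differ in depth. After thinning the values were 0.49 and 0.30. Over the 10 pairs of expressed members from the same cluster the median rho was 0.12, beside 0.045 over the 200 other pairs, whose range was from −0.58 to 0.63. *Nnat* lies within *Blcap* on the opposite strand (rho 0.32), and *Zrsr1* within *Commd1* on the opposite strand (rho −0.21). The sources do not say whether the counting used strand, and *Zrsr1* and *Commd1* have 355 words of 31 bases in common, so reads from overlapping stretches may be split between them.

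Between diets, levels were compared as the log2 ratio of mean CPM in HFD over REG cells, and a ratio beyond 1 in either direction, a fold of 2, was counted. Of the 21 expressed members, 1 (4.76%) had a ratio above 1, *Peg10*, where 9.04% of the 10802 expressed genes did. Below −1 were 3 members (14.3%), *Mest*, *Dlk1* and *Trappc9*, where the share among expressed genes was 14.3%. The share of members above the fold is under that of all genes and the share below it is equal to it. The median ratio of the 21 members was −0.24 and that of all expressed genes −0.13. In all, 7 members had a positive and 14 a negative ratio, and of all expressed genes 4627 had a positive and 6175 a negative ratio. The sign was the same within batch 1 and within batch 2 for 13 members (61.9%), against 49.2% of all expressed genes. By background knowledge of the parental copy, the 13 expressed paternal members had a median of −0.15, with 5 positive and 8 negative. The 6 expressed maternal members had a median of −0.77, with 5 negative and 1 positive, *Ube3a* at 0.43. That median lies between *Igf2r* (−0.79) and *Zim1* (−0.75), which reached 5 cells above 15 CPM in REG but not in HFD cells. For both, a low ratio was to some extent fixed by the filter. *Zim1* and *Blcap* differed in sign between batches, and *Commd1* was at −0.08 in TPM. The parental copy was not seen in these cells, so the classes were not checked in them. The difference between the classes was not tested, and *Grb10* and *Gnas*, classed as mixed, are in neither. Nearest to the limit on its other side were *Gnas* at 0.997 and *Commd1* at −0.83.

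**Figure D3:**
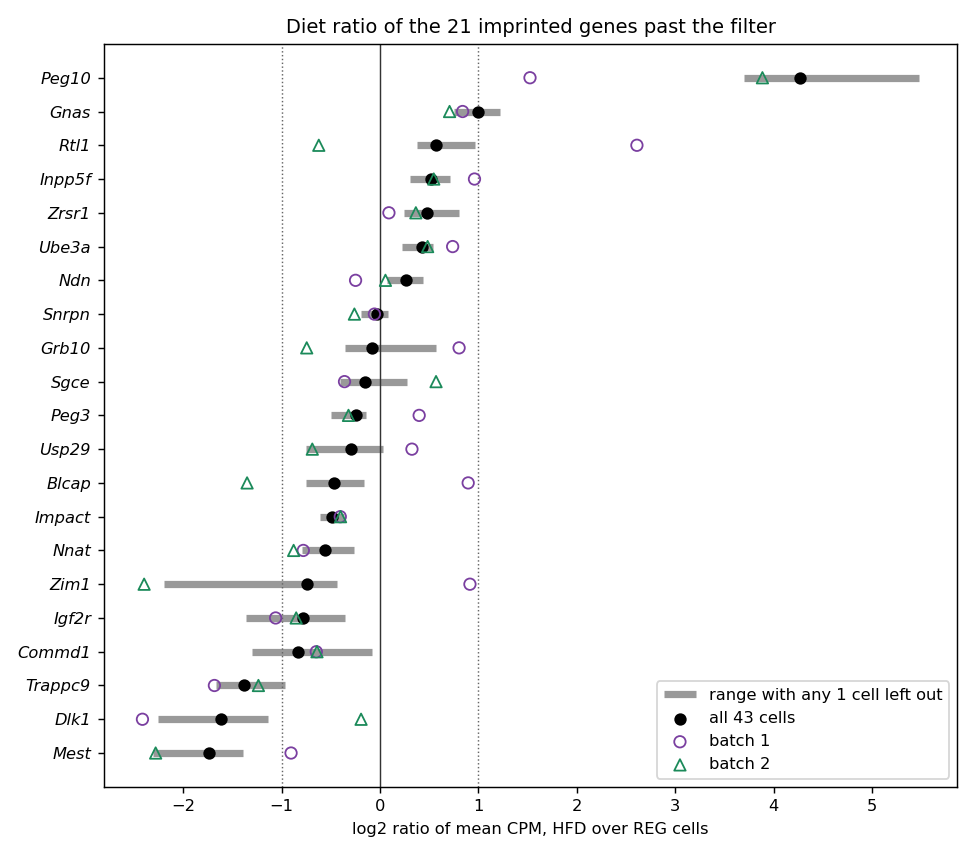
Log2 ratio of mean CPM in HFD over REG cells for the 21 expressed imprinted genes (black), within batch 1 (circles) and batch 2 (triangles), with grey bars for the range when any 1 cell is left out and lines at a fold of 2. *Peg10* lies at 4.26, and *Mest*, *Dlk1* and *Trappc9* lie below −1 with *Trappc9* crossing that line without a single REG cell.

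*Peg10*, a retrotransposon-derived gene with a role in the placenta (chr6:4747306-4760517, plus strand), showed the most distant ratio. In REG cells its CPM was 0 at the lowest, 0 at the median and 20.8 at the highest, with a mean of 1.54. In HFD cells it was 0 at the lowest, 4.04 at the median and 212 at the highest, with a mean of 29.6. The diets overlap, since 7 HFD cells were at 0, but 5 HFD cells and 1 REG cell exceeded 15 CPM. *Peg10* passed the filter through HFD cells, so a high ratio was to some extent fixed by the filter. The ratio was 4.26 over all cells, 1.52 in batch 1 (means of 0.710 and 2.04 CPM) and 3.89 in batch 2 (2.62 and 38.8 CPM), which held all 6 cells above 15 CPM. Leaving out any 1 cell gave from 3.70, without the highest HFD cell, to 5.47, without the highest REG cell. The summed counts were 98 (95% Poisson interval 79.6 to 119) in REG and 1339 (1268 to 1413) in HFD cells. Among the 23 REG cells, 8 had a count of *Peg10* (34.8%, 16.4 to 57.3%), and among the 20 HFD cells 13 did (65%, 40.8 to 84.6%). After thinning, 3 REG and 11 HFD cells were left. None of its 31-base words occur in another gene.

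Microglial markers were compared beside *Peg10*, because 5 of 5 expressed markers of the 7 listed also had a positive diet ratio, with a median of 0.86. Some other lists did likewise, with 3 of 3 expressed pericyte, leptomeningeal or choroid plexus markers positive (median 1.23). So were 3 of 3 expressed oligodendrocyte markers (0.89) and 1 of 1 endothelial marker (0.89), where 4627 of the 10802 expressed genes were. Astrocyte markers went the other way, with 2 of 2 expressed markers negative (median −0.40). The highest *Peg10* cell had 109 CPM of the pericyte, leptomeningeal and choroid plexus markers, at rank 5 of the 43 cells, and the part of these lists in the ratio of *Peg10* was not tested. None of the 7 microglial markers was at 0 in all cells. In HFD cells with more than 15 CPM of *Peg10* (n = 5) the summed microglial CPM was 72.7 at the median (9.003 to 954), and in the other HFD cells (n = 15) it was 65.9 (3.81 to 1348). At least 4 of the 7 microglial markers were above 15 CPM in 2 of those 5 HFD cells and in 1 of the other 15. Over both diets the medians were 236 CPM in cells above 15 CPM of *Peg10* (n = 6) and 61.9 CPM in the rest (n = 37). Without the 6 cells, 3 of each diet, in which at least 4 of 7 microglial markers were above 15 CPM, the ratio of *Peg10* was 3.70, with means of 1.51 and 19.7 CPM. The part of microglial transcripts in the ratio of *Peg10* was not tested. *Sgce* starts beside *Peg10* on the opposite strand (chr6:4674350-4747207) and is read from the same parental copy. Its mean was 24.4 CPM in REG and 21.97 CPM in HFD cells, a ratio of −0.15, with −0.36 in batch 1 and 0.57 in batch 2. *Sgce* and *Peg10* were both above 15 CPM in 4 cells, with 18 cells above it for *Sgce* and 6 for *Peg10*. The farther neighbours *Asb4* and *Calcr* had mean CPM below the filter.

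*Mest*, which encodes an enzyme of the alpha/beta hydrolase fold and is known from growing fat tissue (chr6:30723547-30748465, plus strand), had the lowest ratio of the expressed members at −1.74. Its CPM in REG cells was 0 at the lowest, 35.9 at the median and 402 at the highest, and in HFD cells 0, 0.905 and 153. The means were 70.6 and 21.2 CPM. Both diets include cells at 0 and the ranges overlap, but 15 REG and 6 HFD cells were above 15 CPM. A count of *Mest* was present in 20 REG cells (87.0%, 66.4 to 97.2%) and, in the HFD group, in 11 cells (55%, 31.5 to 76.9%). After thinning, 18 and 7 cells were left. The ratio was −0.90 in batch 1 (58.2 and 31.1 CPM) and −2.28 in batch 2 (86.7 and 17.9 CPM). With any cell left out it was −2.31 to −1.39. The HFD mean in batch 1 rested mostly on the cell at 153 CPM, with counts in 2 of 5 cells and a median of 0. In batch 2 the HFD cells also had fewer genes at equal depth, with a median of 6492 genes after thinning against 8212 in REG cells, and the part of this in the detection of *Mest* was not tested. *Mest* has 882 of its 4016 words (21.96%) in common with its neighbour *Copg2*, a coat protein gene. The means of *Copg2* were 25.1 CPM in REG and 61.1 CPM in HFD cells, but its medians were 4.72 and 4.93 CPM. A single HFD cell at 660 CPM held 54.0% of its HFD level.

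**Figure D4:**
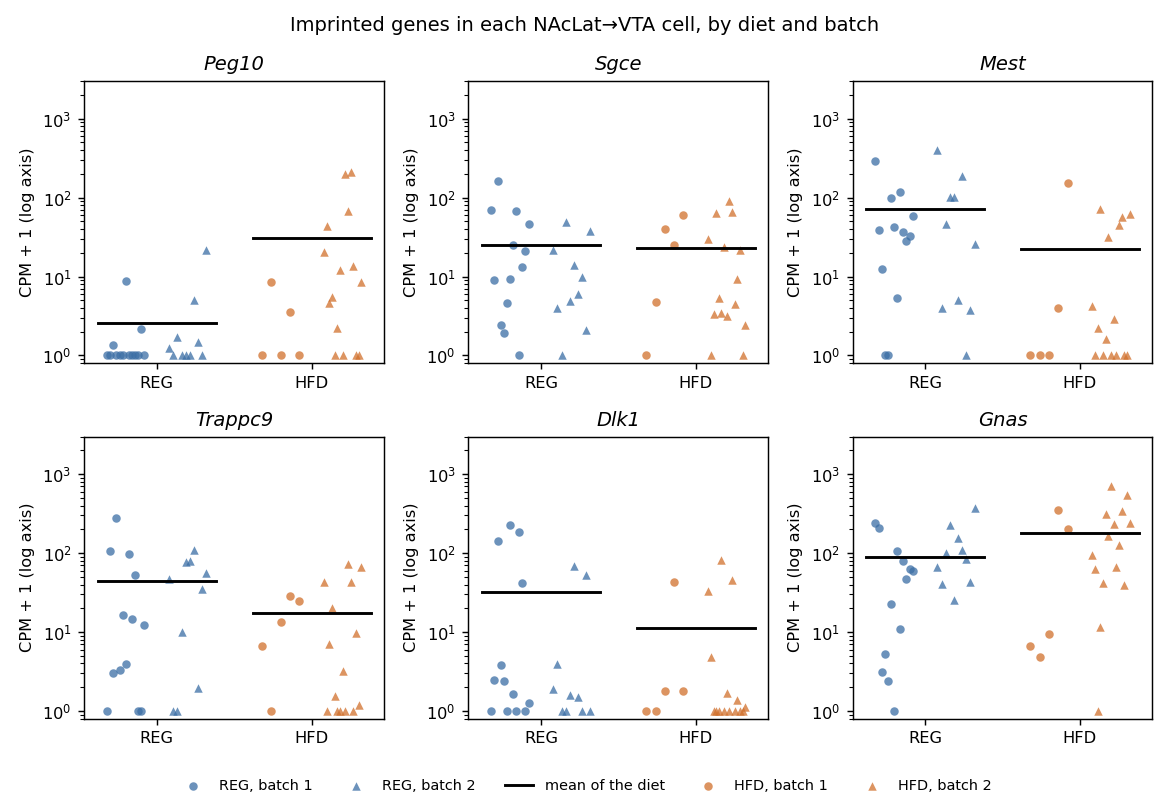
CPM + 1 on a log axis for 6 imprinted genes in each NAcLat→VTA cell, by diet, with batch 1 and batch 2 as different marks and a bar at the mean of the diet. REG and HFD cells overlap for each of *Peg10*, *Sgce*, *Mest*, *Trappc9*, *Dlk1* and *Gnas*, and *Peg10* exceeds 15 CPM in 5 HFD cells and 1 REG cell.

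*Trappc9* (chr15:72589620-73061204, minus strand), which acts in vesicle trafficking, had a median of 13.7 CPM and a highest value of 277 CPM in REG cells, and 5.84 and 72.0 CPM in HFD cells. The means were 42.8 and 16.4 CPM, a ratio of −1.38, with −1.68 in batch 1 and −1.24 in batch 2. Without the highest REG cell the ratio was −0.97, on the other side of the limit. *Dlk1*, a relative of the Notch ligands known as a brake on fat cell formation (chr12:109452823-109463336, plus strand), was near 0 in most cells. Its medians were 0.641 CPM in REG and 0.0607 CPM in HFD cells, and 6 REG and 4 HFD cells exceeded 15 CPM. The highest cells reached 226 and 80.8 CPM, and the means of 31.6 and 10.3 CPM gave a ratio of −1.61, from −2.25 without the highest HFD cell to −1.14 without the highest REG cell. Within batches the ratio was −2.41 and −0.19, so the difference between the diets lay mostly in batch 1, which holds 5 HFD cells. The filter asks for at least 5 cells above 15 CPM, which *Dlk1* reached in REG but not in HFD cells, so a low ratio was to some extent fixed by the filter. The same holds for *Zim1*, with 7 REG and 2 HFD cells above 15 CPM, and for *Igf2r*, with 7 and 4.

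*Gnas* (chr2:174284320-174346744, plus strand) had a higher mean in HFD cells in both batches without passing the limit. Its CPM was 0 at the lowest, 61.5 at the median and 374 at the highest in REG cells, and 0, 110 and 707 in HFD cells. The means of 89.1 and 178 CPM gave ratios of 0.84 and 0.71 within batches, and 0.75 to 1.22 with any cell left out. In batch 1 the medians ran the other way, at 45.4 CPM in REG and 8.42 CPM in HFD cells, since the 5 HFD cells stood at 3.81, 5.61, 8.42, 200.4 and 353 CPM. In batch 2 the medians were 92.2 and 126 CPM. The highest *Gnas* cell, at 707 CPM, was also the cell with the highest pericyte, leptomeningeal and choroid plexus markers, and the ratio without it was the lowest of those with 1 cell left out, 0.75. The locus yields several transcripts with different imprints, which are summed here, and 1326 of its 11351 words are shared, nearly all of them with *Gm20721*. *Zrsr1* had a mean of 3961 CPM in REG and 5511 CPM in HFD cells, a ratio of 0.48, with 0.09 in batch 1 and 0.36 in batch 2. A REG cell at 21441 CPM and an HFD cell at 21009 CPM were its highest, with 7307 and 5422 counts of *Zrsr1*. The REG and HFD cells with the highest totals, 16919555 and 8242048, had 7412 and 4885 counts of it, at 438 and 593 CPM. These cells, all of batch 2, were picked as extremes of CPM or of total. In batch 1 the counts of *Zrsr1* ran from 312 to 11867, both in REG cells, at 1762 and 3170 CPM. The part of the total in its diet ratio was not tested. The summed CPM of all 29 members was 5064 at the median in REG and 5288 in HFD cells, and without *Zrsr1* the medians were 2043 and 1986 CPM.

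Among the other members, *Inpp5f* had a ratio of 0.52 and *Impact* one of −0.49, both with the same sign in each batch, as did *Igf2r*, the receptor that clears IGF2, at −0.79 and *Commd1*, a copper and NF-κB regulator, at −0.83. *Commd1* was at −0.08 in TPM and at −0.086 in CPM without its highest REG cell, which reached 443 CPM. *Nnat* was at −0.56 on the ratio of means, with 65.2 and 44.2 CPM, although 17 HFD and 11 REG cells were above 15 CPM and its medians were 14.4 CPM in REG and 27.9 CPM in HFD cells. *Ube3a* was at 0.43 in CPM and −0.46 in TPM. *Snrpn* (−0.03), *Grb10* (−0.08), *Peg3* (−0.24), *Ndn* (0.26) and *Usp29* (−0.29) had small ratios, and 4 of these 5 had ratios of opposite sign in the batches.

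*Rtl1*, *Zim1* and *Blcap* differed in direction between batches. *Rtl1* was 10.99 CPM in REG and 67.1 CPM in HFD cells of batch 1, a ratio of 2.61, and 47.8 and 31.04 CPM in batch 2, a ratio of −0.62. *Zim1* had ratios of 0.91 and −2.40, and *Blcap* of 0.90 and −1.35. The difference between batches was not tested. Over all cells the ratios were 0.57, −0.75 and −0.47, and that of *Zim1* was −2.19 without its highest HFD cell.

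The members under the filter rested on a few cells. *Igf2*, a growth factor, reached 267 CPM in an HFD cell of batch 2 that accounted for 91.9% of its CPM over the HFD cells, and the next cell, from a REG mouse, stood at 84.3 CPM. The same cell held 96.1% of the HFD level of *Cdkn1c*, a cyclin-dependent kinase inhibitor, at 146 CPM, with the next cell at 28.4 CPM. This cell had the highest summed pericyte, leptomeningeal and choroid plexus markers of all 43 cells, at 573 CPM, with 5 of 7 markers above 0 and *Col1a2* at 458 CPM. It also had 876 CPM of *Gad1*, which encodes a GABA-synthesizing enzyme. The part of such cells in these values was not tested. *Plagl1*, a zinc finger factor, was highest at 197 CPM in an HFD cell and 165 CPM in a REG cell, and *Asb4* stayed at or below 20.8 CPM. Most of the words of *Igf2* (61.9%) also occur in *Gm49394*, which had no counts.

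Of 51 further imprinted genes, 46 were in the table and 22 were expressed. Ratios above 1 were found for 3, *Copg2* (1.28), *Pon2* (1.14) and *Qpct* (1.45), and below −1 for *Mcts2* (−3.30), with a median of 0.27. These are 13.6% and 4.55% of the 22, beside 9.04% and 14.3% of all expressed genes. Each of the 3 above 1 was lost without a single HFD cell, with ratios of 0.24 for *Copg2*, −1.22 for *Pon2* and 0.83 for *Qpct*, and *Pon2* was at −3.35 in batch 1. *Mcts2*, a retrogene, had counts in 9 REG and 2 HFD cells and passed the filter with 5 cells above 15 CPM, 4 of them REG cells, so a low ratio was to some extent fixed by the filter. A single cell held 98.5% of its HFD level. Of 20 genes that establish, keep or read imprints, 14 were expressed, and 2 (14.3%) were below −1, equal to the share of all expressed genes. *Ctcfl*, a relative of the insulator protein CTCF, was at 1.14, while *Zfp445*, a zinc finger guardian of imprints, was at −1.15 and *Tet3*, an enzyme that oxidizes methylated cytosine, at −1.74. *Tet3* had a median of 29.3 CPM in REG and 3.16 CPM in HFD cells, with ratios of −1.42 and −1.70 in the batches. *Zfp445* had 104 and 31.6 CPM, with −1.21 and −1.02. *Ctcfl* was at −1.68 in batch 1 and 1.15 in batch 2. The median over the 14 regulators was −0.21.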

How the data were processed

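Each library was quantified by the authors with kallisto against mouse transcripts of GRCm38 and summed to genes, and cells poor in reads or genes were dropped by them. The deposited values are estimated counts, not normalized, in one table and TPM, scaled by the authors per cell, in the other. From these, CPM was computed as the count over the cell's total, times 1000000. Groups and batches came from the labels. Members, lists and clusters were chosen with earlier results of these data known. Every member in the table is named, and further imprinted genes and regulators are named past a fold of 2, except 1 regulator that is not reported here.

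Ratios divide mean CPM and carry no test. Shares carry exact binomial and summed counts exact Poisson 95% intervals. Thinning drew 150000 counts per cell without replacement with a fixed seed. Shared words are stretches of 31 bases of a gene's GENCODE transcripts that occur in another gene. The ratio was checked on simulated counts with 1 fixed dispersion for all genes. There, 11.7% of the 10602 genes without a true difference still passed a fold of 2 in either direction. Of genes with a true log2 ratio of 1.5 or −1.5, 72% and 74% passed it. A ratio past the fold is therefore not proof of a difference. Alternatives covered TPM, TMM factors (edgeR 4.0.16), DESeq2 1.42.0 size factors, summed counts, the difference of mean log2(CPM + 1), an edgeR coefficient with batch as a term (counts rounded to whole numbers and read as a value), each batch, thinning, other filters and leaving out each cell. The software was R 4.3.3 and Python 3.11.15 with pandas 2.3.3, numpy 2.4.6, matplotlib 3.10.9 and scipy 1.17.1. The total count per cell, 176961 at the lowest, limits the detection of low members.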

Additional observations from a re-analysis of the deposited data

How the results depend on the processing

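The number of expressed members stayed within 1.5 times of 21 under every alternative run, from 18 with the filter applied to TPM to 29 with any count, while the counts past a fold and the median ratio moved. The number above a fold of 2, 1 in the report, was 0 with TPM and 0 with the filter set to at least 10 cells, since *Peg10* was then under the filter. It was 2 with TMM factors, DESeq2 size factors, summed counts, thinning and the edgeR coefficient with batch, 3 with the difference of mean log2(CPM + 1) and 4 without a filter. The number below, 3 in the report, was 6 with summed counts and 5 without a filter. The median, −0.24 in the report, was −0.12 with TMM factors, −0.018 with DESeq2 size factors, −0.60 with summed counts, −0.28 with the log difference, 0.017 in batch 1, −0.36 in batch 2, −0.16 as the mean of both batches, −0.19 after thinning, −0.020 with the edgeR coefficient and −0.15 without a filter. The median of all expressed genes shifted by 0.14 with TMM factors, 0.15 with DESeq2 size factors, 0.14 with the edgeR coefficient and −0.12 with the log difference. Leaving out each of the 43 cells gave medians of −0.42 to −0.086, 1 to 2 members above and 2 to 4 below. Causes of these moves other than the filter on *Peg10* were not tested. The sign held in every alternative for 10 of 21 members, among them *Peg10*, *Mest*, *Trappc9*, *Dlk1* and *Gnas*, and changed in at least 1 for 11, such as *Rtl1*, at −1.35 with summed counts, and *Nnat*, at 1.12 with the log difference. Totals without *Lars2* and *Gm19220*, and *Peg10* without cells with microglial markers, were chosen after seeing the data. With these totals 1 member was above and 3 below a fold of 2, and the median was −0.23. No paired analysis was possible because the replicate numbers only name cells and no label ties cells of the diets to each other. Each diet counts as 1 sample, so neither mice nor litters can be weighed against diet, and batch 1 holds 5 HFD cells.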
